A study of Mus musculus with 9 samples.

Results

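Lungs carrying 2 copies of a human CFTR transgene were compared with lungs carrying 1 copy. The comparison used the 6 arrays of these 2 groups, out of 9 in the series, and covered all 22626 probe sets of the array that are not controls. The homozygous group (HO, 3 arrays) had the genotype SP-C-hCFTR+|+ and the heterozygous group (HE, 3 arrays) had SP-C-hCFTR+|-. Both groups were adult FVB/N mice, and both kept their own Cftr gene intact (mCftr+|+). The remaining 3 arrays were wild-type lungs (WT) without the transgene. They entered the fit for the estimate of spread and are described where their level helps to place a difference.

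CFTR is the chloride and bicarbonate channel of epithelial membranes whose loss causes cystic fibrosis. It folds slowly in the endoplasmic reticulum with the help of chaperones, and much of the newly made protein is passed to the proteasome. At the apical membrane it is anchored by PDZ-domain scaffolds and recycled by Rab GTPases. The transgene was a cDNA of the normal human channel under the promoter of Sftpc, the surfactant protein C gene, which is active in alveolar type II cells and other distal epithelium. The channel was therefore placed in cells that are only a fraction of the lung, while RNA was taken from lung tissue. In such bulk RNA, fewer cells of a type and less RNA per cell cannot be told apart. The series sets transgene doses side by side, and HO against HE asks what a second transgene allele adds to the first.

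The labels do not agree on 1 of the arrays. HO replicate 2 is titled and genotyped as homozygous, but its description gives the genotype with a single transgene allele. It was kept in HO, and some results are also given without it or with it counted as HE. The samples of a group are labelled as a triplicate, and whether each came from its own mouse is not said. The p-values therefore rest on the spread among these arrays, and that spread may be technical. Every array had been scaled to the same trimmed mean, and the median intensity ran from 697.1 to 714.7 in HO and from 706.2 to 722.45 in HE. Over the 13576 probe sets that passed the filter on low signal (a mean log2 signal of at least 8.90), arrays of different groups were as alike as arrays of 1 group. Correlations of log2 signal ran from 0.965 to 0.967 within HO, from 0.965 to 0.970 within HE and from 0.959 to 0.976 between HO and HE, across probe sets, which are not independent. The ratio of 3' to 5' Actb control probe sets, a sign of RNA quality, was 1.35, 1.39 and 1.22 in HO replicates 1 to 3 and 1.22, 1.07 and 1.26 in HE. Its part in the differences below was not tested.

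The probe sets of Sftpc and Cftr stand closest to the transgene. Sftpc, whose promoter the transgene borrows, had log2 signals of 15.92, 15.76 and 15.94 in HE replicates 1 to 3 and 16.05, 16.03 and 15.75 in HO. The groups overlapped, and the difference of HO minus HE was 0.07 ± 0.15 (SE, n = 3 per group) with a 95% interval of -0.27 to 0.41. Its signal was near the highest mean of any tested probe set (16.01), and whether that limits the difference was not tested. The mouse's own Cftr had log2 signals of 10.10, 9.96 and 10.02 in HE and 9.91, 10.13 and 10.01 in HO, which also overlapped. Its difference was -0.01 ± 0.14, with an interval of -0.32 to 0.29. The probe set was designed for the mouse transcript and whether it binds the human one was not tested, so it does not check the dose of the transgene.

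No probe set passed the test after the filter: 0 of 13576 (0%) had an adjusted p under 0.05 with limma and Benjamini-Hochberg adjustment, and the lowest adjusted p was 0.9998. At an unadjusted p under 0.05 there were 348 probe sets (2.56%), where 679 (5%) would be expected if none differed. HO was above HE for 158 (1.16%) and below for 190 (1.4%). That balance moved with the scaling and with single arrays: centring each array on its median gave 197 higher and 150 lower, leaving out HO replicate 3 gave 246 and 415, and leaving out HO replicate 1 gave 159 and 261. All 3 HO arrays lay on 1 side of all 3 HE arrays for 904 probe sets (6.66%), with HO higher for 471 (3.47%) and lower for 433 (3.19%). Both conditions held for 242. With 3 arrays per group, the arrays of some probe sets lie apart without any difference between the groups, so this count is a description and is not read as an excess. The share at an unadjusted p under 0.05 was 3.95% among the dimmest probe sets, 2.63% among those of middle signal and 1.1% among the brightest, in groups of equal size. For a typical probe set the 95% interval reached 0.35 to either side of the difference on the log2 scale. Only 16 of the 13576 differed by more than 1 on that scale, 8 in each direction.

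**Figure D1:**
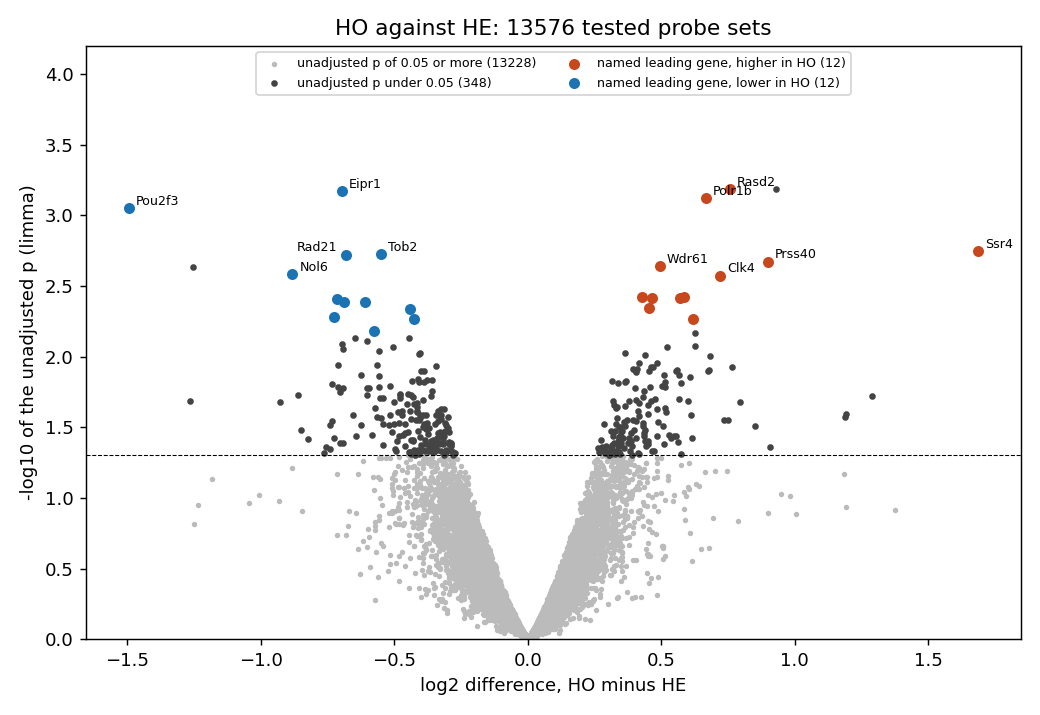
Difference of HO minus HE (log2, horizontal) against the unadjusted limma p (as -log10, vertical) for the 13576 tested probe sets, with a dashed line at 0.05. The 348 points above the line lie on both sides, and the 12 leading genes in each direction are coloured; none passed after adjustment.

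The result is different when probe sets of low signal are kept. With all 22626 probe sets in the same fit, 2 (0.00884%) passed an adjusted p of 0.05 with limma. An unadjusted p under 0.05 was reached by 783 (3.46%), where 5% would be expected if none differed. The arrays of HO and HE did not overlap for 1557 (6.88%), and here too some lie apart without any difference between the groups. Both that passed lie below the filter. Syt8 encodes a member of the synaptotagmin family of membrane-traffic proteins. Its intensities were 117, 124 and 126 in HE replicates 1 to 3, 561, 591 and 458 in HO, and 463, 346.5 and 436 in WT. The 3 HE arrays were low, and the HO and WT arrays lay well above them. HO was 4.37 times HE, which is 2.13 ± 0.14 on the log2 scale (SE, 3 arrays in each group; 95% interval 1.80 to 2.46; adjusted p = 0.0194 with limma). The mean signal of this probe set, on chromosome 7, lay at the 30.2th percentile of the array.

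Fezf2, a zinc finger transcription factor known from the developing forebrain, was lower in HO. Its intensities were 127, 160 and 102 in HE, 31.2, 20.3 and 20.1 in HO, and 17.5, 15.1 and 12.1 in WT. The 3 HE arrays alone were high. Intensities were raised to a floor of 25.55 before the log2 step, so all WT arrays and HO replicates 2 and 3 entered the fit at the floor. On that floored scale the log2 difference was -2.22 ± 0.17 (adjusted p = 0.0247 with limma). The WT arrays then had no spread, and they enter the estimate behind that SE. Without the floor the difference was -2.45 ± 0.25, and Fezf2 no longer passed (adjusted p = 0.0942 with limma) while Syt8 did (0.0166). The mean signal of Fezf2 lay at the 7.33th percentile of the array, and no detection calls were used.

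The 2 calls rest on few arrays. Of the 9 fits that leave out 1 array, Syt8 kept an adjusted p under 0.05 in 3, without WT replicate 2, HE replicate 3 or HO replicate 3. It was lost in the other 6, with adjusted p up to 0.12 in limma. Fezf2 passed in 1, without HE replicate 3, and reached 0.141 at most. Their log2 differences stayed between 2.05 and 2.24 for Syt8 and between -2.39 and -2.06 for Fezf2. Without HO replicate 2, whose label is in doubt, no probe set passed, and the adjusted p was 0.0981 for each. With that array counted as HE, the difference of Syt8 was 1.48 ± 0.65 and that of Fezf2 was -1.60 ± 0.67 (adjusted p = 1 for each with limma), and 3 other probe sets passed, for Cdk5r1, Tbx15 and Wfdc5.

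The next 4 named probe sets by p in the fit of all probe sets did not pass. Guca1b, a regulator of guanylate cyclase in photoreceptors, had intensities of 20.6, 34.6 and 48.2 in HE, 173, 160.2 and 151 in HO and 118, 145.5 and 114 in WT (log2 difference 2.21 ± 0.22, adjusted p = 0.131 with limma). Its other probe set differed by -0.03 ± 0.34. Btnl10, of the butyrophilin-like family, had 171, 186 and 95 in HE and 35.2, 21.8 and 27 in HO (-2.32 ± 0.26). Its WT arrays, at 141, 120.1 and 142, lay with HE. HE replicate 1 of Guca1b and HO replicate 2 of Btnl10 lay under the floor, which enters their differences. 4930483J18Rik (1.61 ± 0.21) and Ly6f, a gene of the Ly6 family (1.46 ± 0.20), were low in HE, at 59.1 to 81.5 and 71.7 to 92.3. They were higher in HO, at 166 to 267 and 204.5 to 259, and their WT arrays lay near HO. Of these 6 probe sets the WT mean was nearer to HO in 5 and nearer to HE in 1. All 6 lie below the filter on low signal, and they were named after their values were seen.

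**Figure D2:**
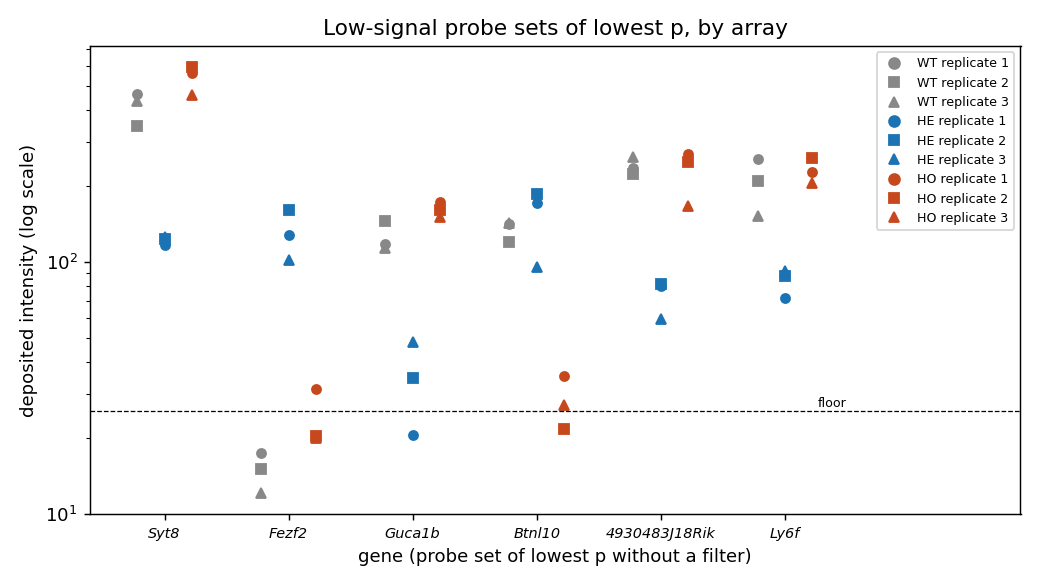
Deposited intensity (log axis) on each of the 9 arrays for the 6 named probe sets of lowest p when none is filtered out; colours give the group, shapes the replicate number, and the dashed line is the floor of 25.55. For Syt8, the 3 HE arrays sit between 117 and 126 and the other 6 between 346.5 and 591.

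Among the probe sets that passed the filter, the 12 genes of lowest p in each direction whose arrays did not overlap were taken as leading genes, and none of them passed after adjustment (adjusted p = 0.9998 for each with limma). These values describe the top of the ranking and carry no call. Their differences were 0.43 to 1.69 upward and -1.49 to -0.42 downward on the log2 scale. All but 2 had a mean log2 signal under 11.

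Among the leading genes that were higher in HO, Polr1b, the second largest subunit of RNA polymerase I, had log2 signals of 8.91, 8.87 and 9.15 in HE replicates 1 to 3 and 9.76, 9.64 and 9.54 in HO. All HO arrays were higher, by 0.67 ± 0.15 (SE, n = 3 per group), while the WT arrays, at 8.84 to 9.24, lay with HE. Clk4, a kinase that phosphorylates splicing factors, was at 10.22, 10.58 and 10.43 in HE and 11.49, 11.14 and 10.76 in HO (0.72 ± 0.19). Its other probe set gave 0.09 ± 0.16. Wdr61, a subunit of complexes of transcription elongation and RNA decay, was at 11.49, 11.51 and 11.49 in HE and 11.93, 12.20 and 11.85 in HO (0.49 ± 0.13), a tight HE group below every other array. Its 2 other probe sets gave 0.07 and -0.16. Lsm14b, an RNA-binding protein, differed by 0.62 ± 0.18. Brd3, a reader of acetylated chromatin, had 9.53, 9.59 and 9.75 in HE and 10.11, 9.97 and 10.14 in HO (0.45 ± 0.13), and its second probe set gave 0.41 ± 0.16, also with no overlap.

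The other leading genes that were higher in HO have varied roles. Rasd2, a small GTPase of the Ras family, had the lowest p of the leading genes. Its log2 signals were 9.09, 9.08 and 8.60 in HE and 9.81, 9.46 and 9.76 in HO (0.76 ± 0.16), and the WT arrays, at 9.84 to 9.99, were higher than every HO array. Its other probe set gave 0.04 ± 0.25. Ssr4, a subunit of the translocon-associated protein complex that helps proteins enter the endoplasmic reticulum, had the largest difference among these 12. It was at 7.91, 8.11 and 9.08 in HE and 10.15, 9.90 and 10.11 in HO (1.69 ± 0.41), with WT spread over 8.18 to 10.02. The 2 other Ssr4 probe sets, 1 of them far brighter with HE at 12.07 on average, gave 0.19 ± 0.15 and 0.21 ± 0.16. Ahcy, which clears S-adenosylhomocysteine, was at 10.56, 10.65 and 10.43 in HE and 10.99, 10.99 and 10.95 in HO (0.43 ± 0.12). Hyal2, a hyaluronidase, was at 11.36, 11.35 and 11.47 in HE and 11.98, 11.73 and 12.18 in HO (0.57 ± 0.16), with WT at 11.79 to 12.22 and thus at the level of HO. The serine protease gene Prss40 (0.90 ± 0.23), the endoplasmic reticulum cation channel Tmem38b (0.59 ± 0.16) and the nuclear import receptor Kpna3 (0.46 ± 0.13) complete the 12. Other probe sets of Tmem38b gave -0.23 and 0.04, and those of Kpna3 gave 0.06 and -0.03.

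Among the leading genes that were lower in HO, Eipr1, a partner of the tethering complexes of endosome recycling, had the lowest p. It was at 9.36, 9.16 and 9.46 in HE and 8.64, 8.43 and 8.83 in HO (-0.70 ± 0.15 SE, n = 3 per group), and the WT arrays lay with HE at 9.25 to 9.57. Pou2f3, the transcription factor that tuft cells depend on, differed most of these 12. It was at 9.95, 10.97 and 9.74 in HE and 8.90, 8.78 and 8.50 in HO (-1.49 ± 0.33). The WT arrays, at 8.95 to 10.12, lay above every HO array and ran into the range of HE. Of 16 listed tuft cell markers, 4 passed the filter, Pou2f3 among them, and the arrays of HO and HE overlapped for the other three, Alox5ap, Ltc4s and Spib. Alox5ap had 11.97, 12.22 and 12.91 in HE against 12.10, 11.89 and 12.26 in HO. The tuft cell channel Trpm5 did not pass the filter, and at its brighter probe set HE spanned 7.11 to 7.65 and HO 6.98 to 8.06, so the groups overlapped.

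Tob2, an antiproliferative protein that binds the deadenylase complex, was at 10.83, 11.00 and 10.85 in HE and 10.44, 10.46 and 10.13 in HO (-0.55 ± 0.14). A second Tob2 probe set gave -0.45 ± 0.17 with overlapping arrays, and the other 2 gave 0.05 and 0.01. Rad21, a subunit of cohesin, was at 9.37, 9.34 and 8.85 in HE and 8.58, 8.61 and 8.33 in HO (-0.68 ± 0.17), while brighter Rad21 probe sets gave -0.32 ± 0.18 and -0.07 ± 0.17. Elk4, an ETS factor that acts with serum response factor, was at 10.34, 10.31 and 10.31 in HE and 9.46, 10.14 and 9.54 in HO (-0.61 ± 0.17), so that HO replicate 2 lay nearest to HE. Its WT arrays lay at 9.80 to 9.90, and its brighter probe set gave 0.04 ± 0.15. Nol6, a nucleolar protein of ribosome assembly, differed by -0.88 ± 0.23 and Ddx39a, an RNA helicase, by -0.72 ± 0.21. The other Nol6 probe set gave -0.09 ± 0.18. Other probe sets of Ddx39a gave 0.34, -0.32 and -0.02. Alkbh4, a demethylase, and Usp45, a deubiquitinase, differed by -0.71 ± 0.20 and -0.69 ± 0.19, and the other probe set of Usp45 gave 0.11 ± 0.17. Kpna1, an import receptor like Kpna3, was at 10.75, 10.61 and 11.29 in HE and 10.41, 10.19 and 10.32 in HO (-0.58 ± 0.17). The 3 other probe sets of Kpna1 gave -0.64, -0.22 and -0.12. Fam114a1 (-0.44 ± 0.12) and Prkag1, a regulatory subunit of AMP-activated kinase (-0.42 ± 0.12), complete the 12. Their other probe sets, each brighter, gave 0.03 ± 0.11 and -0.06 ± 0.18.

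**Figure D3:**
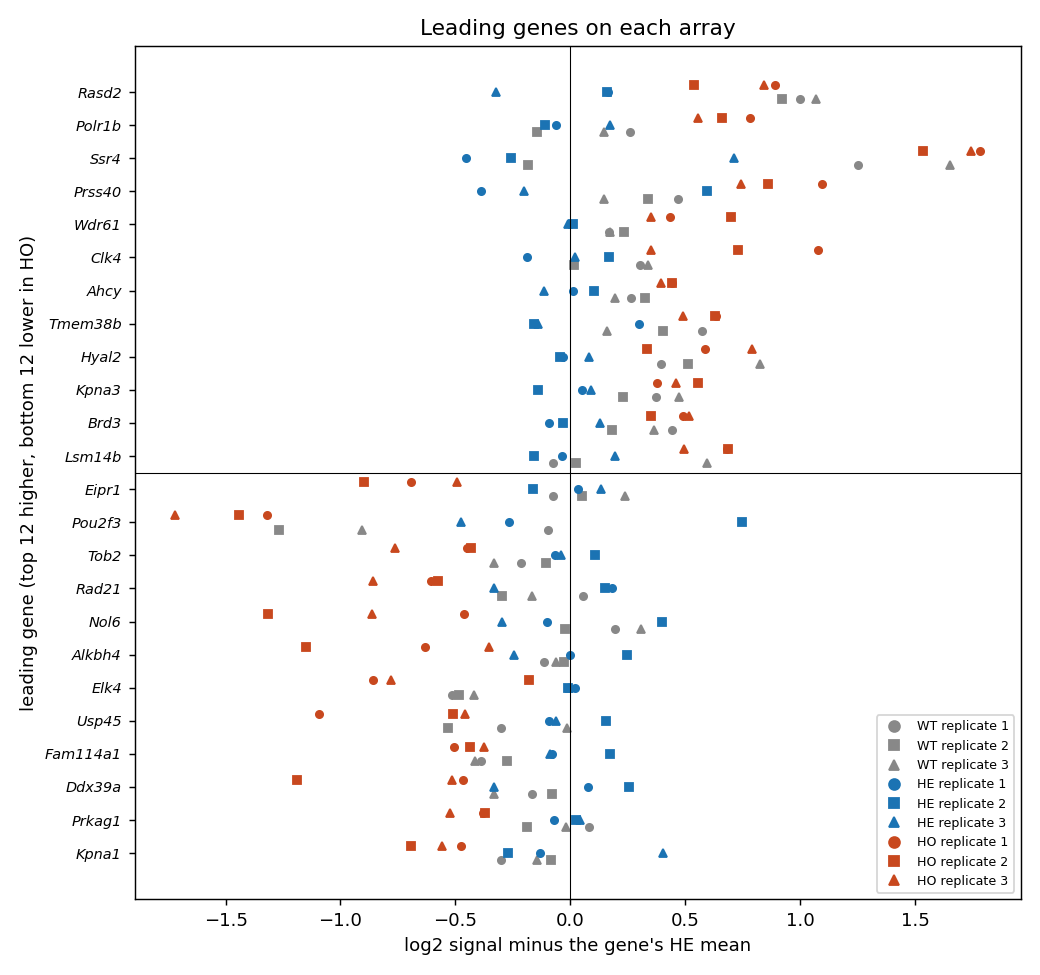
Log2 signal of the 24 leading genes on each array, drawn as the distance from the gene's mean in HE; blue points are HE, orange HO and grey WT, and shapes give the replicate number. HO and HE points do not overlap in any row, which is how the genes were chosen, and the WT mean lies between the group means in 20 of the 24.

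Other probe sets of the same genes gave a further reading, but not an independent one. The leading probe set was picked by lowest p within its gene. All were read on the same arrays, and probe sets of 1 gene can share probes. Of the 24 leading genes, 16 had another tested probe set. These other probe sets numbered 27, of which 18 had the sign of the leading one and 9 the opposite sign. In 2 genes, Brd3 and Tob2, another reached an unadjusted p under 0.05 with limma, and with the same sign. Over the whole array, 2882 genes had more than 1 tested probe set, and 181 of them had any probe set at that level. In 3 genes at least 2 probe sets reached it in the same direction: Brd3, Tob2 and Jag2, a ligand of Notch receptors. Jag2 had log2 signals of 10.15, 10.08 and 10.25 in HE and 10.38, 10.67 and 10.38 in HO at its brighter probe set (0.32 ± 0.13), and the other gave 0.45 ± 0.20. Its WT arrays, at 10.40 to 10.66 on the brighter probe set, lay with HO. Without HO replicate 2 both Brd3 probe sets kept that level (unadjusted p = 0.00592 and 0.0441 with limma), while those of Jag2 (0.145 and 0.111) and the second of Tob2 (0.0688) did not. With that array counted as HE none of the 3 genes kept it at both probe sets, and the brighter probe set of Jag2 differed by 0.10.

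The WT arrays placed the leading genes between the transgenic groups more often than on the HE or HO side. The WT mean lay between the HE and HO means for 20 of the 24, and it was nearer to HE for 14 and nearer to HO for 10. It lay beyond HO for Rasd2 and Hyal2 and beyond HE for Eipr1 and Nol6. Since the genes were chosen for the distance between HE and HO, a place between them is a description only.

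Without HO replicate 2 all 24 kept an unadjusted p under 0.05 with limma, and 265 probe sets reached that level in all, of which 145 were among the 348. The 24 were chosen on these same arrays for a low p and no overlap, so this is a description only. Counting HO replicate 2 as HE can weaken genes chosen for its distance from HE. In that fit 71 of the 348 were kept among 304 probe sets. Of the 24, 12 kept an unadjusted p under 0.05 with limma, and the arrays stayed apart in 8. Hyal2 (0.60, unadjusted p = 0.00379 with limma), Rasd2 (0.73, 0.00348), Elk4 (-0.78, 6.21e-05) and Usp45 (-0.65, 0.0153) were among those that kept it, and Alkbh4 (-0.21, 0.507), Ddx39a (-0.19, 0.548) and Nol6 (-0.33, 0.369) were not.

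Gene lists were read on 8184 genes, taking for every gene the brightest of its probe sets. Of these 54.3% were higher in HO, with a median difference of 0.02 on the log2 scale, and 2.28% had an unadjusted p under 0.05. Of 51 lists, 45 had at least 5 measured genes, and no member of any list passed after adjustment with limma. The median difference was above 0 in 30 lists and below 0 in 15. With HO replicate 2 counted as HE, the median changed sign in 15 of the 45. The median of HO was higher on every array than on any HE array in 4 lists, and the arrays overlapped in the other 41. With so few arrays per group, the arrays of some lists lie apart without any difference between the groups. The count of 4 is therefore a description and is not read as an excess, and it does not set these lists apart from the others.

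The proteins that bind, fold, traffic and degrade CFTR made 1 of those 4 lists. Of 47 measured genes, 31 were higher and 16 lower in HO, with a median of 0.05, and 0 had an unadjusted p under 0.05 with limma. The list median, relative to the HE mean of each gene, was 0.01, -0.05 and 0.03 on HE replicates 1 to 3 and 0.11, 0.08 and 0.05 on HO. The highest HE array and the lowest HO array were thus closer to each other than the arrays within either group were at their farthest. Rab5a, a GTPase of early endosomes, was at 12.58, 12.23 and 12.23 in HE and 12.65, 12.66 and 12.54 in HO (0.27 ± 0.13), and the arrays overlapped. Hspa8, the constitutive Hsc70 chaperone that binds the channel as it folds, was at 14.41, 14.60 and 14.71 in HE and 14.94, 15.01 and 14.66 in HO (0.29 ± 0.16), with 0.16, 0.14 and -0.09 at other probe sets. Ube2j1, a ubiquitin-conjugating enzyme of the endoplasmic reticulum, differed by 0.24 ± 0.13 but by 0.00 ± 0.15 at its other probe set. Prkar1a, the regulatory subunit of protein kinase A, whose catalytic subunit opens the channel, differed by -0.25 ± 0.13 but by 0.00 ± 0.17 at its other probe set. The PDZ scaffold genes Slc9a3r1 and Slc9a3r2 differed by 0.05 ± 0.27 and -0.03 ± 0.20, and the lysosome-directing Gopc by -0.17 ± 0.24.

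Protein folding and turnover lists leaned the same way without any member at an unadjusted p under 0.05. Cytosolic heat shock genes were higher in 27 of 33, with a median of 0.12. By array the list median was -0.05, -0.06 and 0.08 in HE and 0.33, 0.11 and 0.07 in HO, so HO replicate 1 was highest and HE replicate 3 lay above HO replicate 3. Without HO replicate 1 the median was 0.06 and 19 of 33 were higher. Hsph1, the Hsp105 chaperone, was at 12.17, 12.0045 and 12.47 in HE and 13.30, 12.73 and 12.50 in HO (0.63 ± 0.33), with no overlap, and 0.66 ± 0.32 at its other probe set. Tcp1, of the chaperonin that folds actin and tubulin, differed by 0.23 ± 0.12 and Hspa2 by 0.28 ± 0.13. The inducible Hspa1b had 13.22, 14.13 and 13.86 in HE and 14.35, 13.05 and 13.91 in HO, a spread within each group far above the difference of 0.03. Endoplasmic reticulum stress genes were higher in 22 of 36 (median 0.03), with Dnajb9, a luminal chaperone cofactor, at 0.29 ± 0.16 and Manf at 0.29 ± 0.20. Proteasome genes were higher in 27 of 37 (median 0.06), with the lowest p at Psmd8 (0.26 ± 0.13) and a larger difference at Psme3 (0.45 ± 0.23). The other Psme3 probe set gave -0.10 ± 0.17.

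Epithelial lists had medians from -0.08 to 0.10, and which cells expressed the transgene was not measured. Alveolar type II markers were higher in 12 of 23 and lower in 11, with a median of 0.01 and a range of -0.15 to 0.17. Surfactant and lamellar body genes were higher in 13 of 19 (median 0.04): Sftpb, whose protein spreads the surfactant film, had 15.03, 14.94 and 15.15 in HE and 15.19, 15.23 and 15.08 in HO (0.13 ± 0.14), and the collectin Sftpd differed by 0.12 ± 0.15. Alveolar type I markers were higher in 12 of 15 (median 0.09). Pdpn, the podoplanin of type I cells, was at 12.995, 12.74 and 13.03 in HE and 13.36, 13.20 and 13.17 in HO (0.32 ± 0.14, unadjusted p = 0.0406 with limma), with no overlap. The water channel Aqp5 differed by 0.22 ± 0.15, with HE replicate 3 higher than HO replicates 2 and 3. Ion channels and transporters of epithelium were higher in 13 of 20 (median 0.10), with the calcium-activated chloride channel Ano1 at 0.35 ± 0.18 and the anion exchanger Slc26a4 at 0.30 ± 0.21, and none reached an unadjusted p under 0.05. Club cell markers were higher in 12 of 16 (median 0.06), and ciliated cell markers were lower in 7 of 10 (median -0.08).

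The neutrophil list had the lowest median of the 45 lists. Of 15 measured genes, 13 were lower in HO, with a median of -0.39, and none had an unadjusted p under 0.05 with limma. The arrays within each group were far apart. The list median by array was -0.42, 0.01 and 0.53 in HE replicates 1 to 3 and -0.02, -0.74 and -0.60 in HO, so HE replicate 1 lay lower than HO replicate 1. S100a8, a subunit of calprotectin, was at 12.29, 13.74 and 14.81 in HE and 13.49, 11.79 and 11.86 in HO (-1.23 ± 0.71), and S100a9, its partner, differed by -1.25 ± 0.81. Csf3r, the receptor for granulocyte colony-stimulating factor, had 9.95, 11.33 and 12.004 in HE and 11.08, 9.60 and 9.47 in HO (-1.04 ± 0.60). Mmp9, a gelatinase of neutrophil granules, differed by -0.56 ± 0.28 and Clec4d, a lectin receptor, by -1.01 ± 0.55. The granule genes Ltf and Ngp differed by 0.00 ± 0.41 and 0.02 ± 0.23. Without HE replicate 3 the list median was -0.17, and without HO replicate 1 it was -0.75. WT arrays spanned -0.38 to 0.19.

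**Figure D4:**
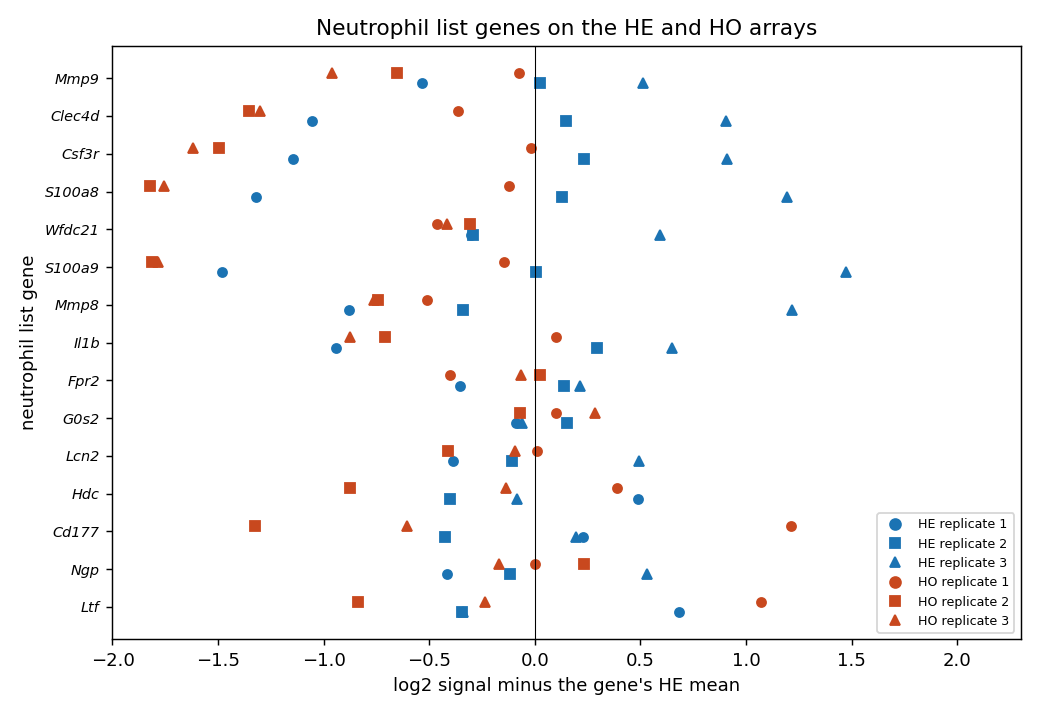
Log2 signal of the 15 measured neutrophil list genes on the HE (blue) and HO (orange) arrays, as the distance from the gene's HE mean; shapes give the replicate number. For S100a8 the HE arrays span 12.29 to 14.81 and the HO arrays 11.79 to 13.49, so the groups overlap.

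T and NK cell genes were higher in 10 of 13, with a median of 0.16. By array the list median was -0.14, 0.12 and -0.04 in HE and -0.05, 0.31 and 0.23 in HO. Gzma, a granule protease of killer cells, was at 10.52, 10.53 and 10.45 in HE and 10.72, 11.11 and 11.22 in HO (0.52 ± 0.20, unadjusted p = 0.0247 with limma), with no overlap. The chemokine Ccl5 had 11.13, 11.29 and 11.49 in HE and 11.17, 12.04 and 12.04 in HO (0.45 ± 0.22), and Ncr1, a receptor of NK cells, differed by 0.51 ± 0.29. The T cell receptor chain gene Cd3e differed by -0.39 ± 0.40 and Cd3g by 0.19 ± 0.15. With HO replicate 2 counted as HE the list median was -0.01 and 6 of 13 were higher, and without that array it was 0.07. MHC class II presentation genes were higher in 12 of 13 (median 0.10) on arrays that did not overlap, at -0.08, 0.05 and -0.05 in HE and 0.15, 0.18 and 0.10 in HO. H2-DMb2, which helps load peptides, differed by 0.29 ± 0.13 (unadjusted p = 0.0482 with limma), and H2-Ab1, the beta chain of the class II molecule, differed by 0.20 ± 0.18. With HO replicate 2 counted as HE 8 of 13 were higher.

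Markers of other leukocytes were divided. Alveolar macrophage genes were higher in 8 of 14 (median 0.04), with the cathepsin Ctsk at 10.43, 9.74 and 10.51 in HE and 10.46, 11.04 and 10.89 in HO (0.57 ± 0.26, unadjusted p = 0.0490 with limma). Dendritic cell genes were higher in 4 of 7 (median 0.12), with the lectin Cd209a at 0.34 ± 0.16 and the transcription factor Zbtb46 at -0.51 ± 0.28. Other probe sets of Zbtb46 gave 0.15 and -0.07. B and plasma cell genes were lower in 8 of 14 (median -0.03). Vpreb3, of the pre-B cell receptor pathway, was at 10.41, 10.48 and 10.51 in HE and 10.14, 9.87 and 10.25 in HO (-0.38 ± 0.13), while Cd79b, a signalling chain of the B cell receptor, differed by 0.45 ± 0.25.

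Inducible genes of inflammation and stress hormones were lower more often than higher. Inflammatory cytokine and NF-kB genes were lower in 18 of 25 (median -0.09), interferon-induced genes in 19 of 30 (-0.11), immediate early genes in 18 of 27 (-0.08) and glucocorticoid-responsive genes in 18 of 27 (-0.05). On all 4 lists the arrays of the groups overlapped. Cebpd, an inducible transcription factor, is on the inflammatory and glucocorticoid lists and also on that of lung epithelial transcription factors. It was at 13.32, 13.47 and 13.61 in HE and 13.29, 12.36 and 12.66 in HO (-0.70 ± 0.22, unadjusted p = 0.00815 with limma). HO replicate 1 lay next to HE, the other probe set gave -0.15 ± 0.21, and counting HO replicate 2 as HE gave -0.21. Fkbp5, a co-chaperone induced by glucocorticoids, differed in the other direction, by 0.43 ± 0.16, with 0.21 ± 0.25 at its second probe set. Among immediate early genes the phosphatase Dusp2 differed by -0.33 ± 0.14 and the transcription factor Egr3 by 0.91 ± 0.40. Fosb was at 8.24, 10.20 and 9.49 in HE and 8.62, 8.48 and 8.04 in HO (-0.93 ± 0.53). Ptgs2, the inducible cyclooxygenase, differed by -0.58 ± 0.31 but by 0.03 ± 0.22 at its other probe set.

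Lists of growth and energy supply had many members slightly higher. Cytosolic ribosomal protein genes were higher in 34 of 40 (median 0.09), with list medians of 0.08, -0.04 and -0.04 in HE and 0.05, 0.25 and -0.04 in HO. HO replicate 2 stood above the rest, and with it counted as HE 13 of 40 were higher and the median was -0.02. Rpl27 differed by 0.34 ± 0.15 (unadjusted p = 0.0474 with limma), with 0.23 and 0.13 at other probe sets. Mitochondrial oxidative phosphorylation genes were higher in 45 of 63 (median 0.08), with the lowest p at Ndufs5 of complex I (0.28 ± 0.14), and their arrays overlapped. Genes of RNA polymerase I and ribosome biogenesis were higher in 19 of 27 (median 0.03). Beside Polr1b, Polr1d, a subunit shared with RNA polymerase III, differed by 0.31 ± 0.18 and 0.11 ± 0.13 at its 2 probe sets, and the initiation factor Rrn3 by -0.26 ± 0.15. Sterol and fatty acid synthesis genes were higher in 22 of 29 (median 0.06), with Fdft1, which makes squalene, at 0.46 ± 0.26. The other Fdft1 probe set gave 0.15 ± 0.23.

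Single genes of other lists reached an unadjusted p under 0.05 with limma. Iscu, the scaffold on which iron-sulfur clusters are built, was at 12.85, 12.77 and 12.84 in HE and 13.23, 13.26 and 13.06 in HO (0.36 ± 0.12), and every WT array, from 12.93 upward, lay between the groups. Col18a1, a basement membrane collagen, was at 10.25, 10.28 and 10.32 in HE and 10.69, 10.94 and 10.54 in HO (0.44 ± 0.14), and its second probe set gave 0.43 ± 0.21. WT arrays of Col18a1, at 10.65 to 10.96, lay with HO. Rab24, a Rab GTPase linked to autophagy, differed by 0.37 ± 0.13 but by 0.00 ± 0.13 at its other probe set. Mmp14, a membrane-bound matrix protease, differed by -0.35 ± 0.15. The fibroblast list (median 0.06, 10 of 15 higher) and the cell proliferation list (median 0.06, 10 of 16 higher) were the remaining 2 whose arrays did not overlap. No member of either had an unadjusted p under 0.05. The fibroblast arrays parted narrowly, with HE replicate 1 at 0.0055 and HO replicate 3 at 0.0132. The only fibroblast member whose arrays lay apart, Fn1, was lower in HO (-0.18 ± 0.15), and its other probe set gave 0.19 ± 0.19.

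Cardiac muscle and adipocyte genes varied between arrays more than between the groups, and the source of their signal was not tested. The list median of cardiac muscle genes was 0.45, -0.34 and -0.14 in HE replicates 1 to 3 and 0.53, -0.30 and -0.21 in HO. Adipocyte genes were at 0.75, -0.81 and 0.02 in HE and 0.63, -0.16 and -0.02 in HO. In both lists replicate 1 was the highest array of its group. Their part in the differences above was not tested. Markers of goblet, tuft, basal, neuroendocrine, mast and red cells had fewer than 5 genes above the filter.

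**Figure D5:**
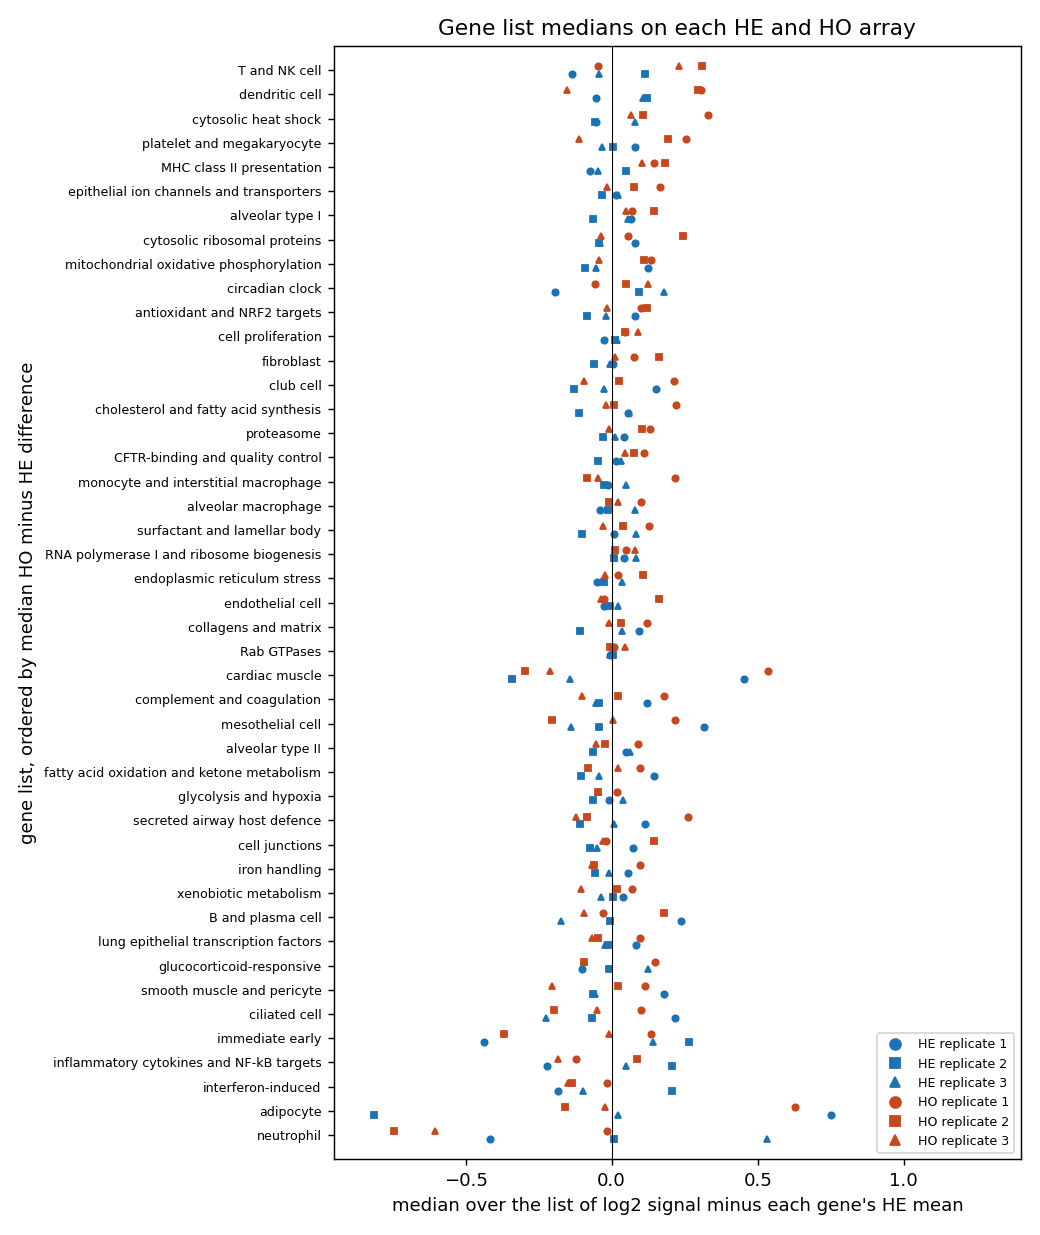
Median of each of the 45 gene lists on the HE (blue) and HO (orange) arrays, as log2 signal relative to each gene's HE mean; lists are ordered by their median difference of HO minus HE, and shapes give the replicate number. The arrays overlap in 41 lists; the widest spreads within a group are those of the neutrophil, adipocyte and cardiac muscle lists.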

How the data were processed

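Total RNA of lung was measured on MOE_430A expression arrays, per the labels. Each array has 1 deposited intensity for every probe set, on a linear scale, and the values show that the authors scaled every array to a 2% trimmed mean of 1500.4. Which software summarised the probes is not stated in the labels or files. Intensities were raised to a floor at their 5th percentile (25.55) and log2 transformed. Of 22690 probe sets, 64 controls were left out, and 13576 with a mean at or above the 40th percentile (8.8963) were tested. limma 3.58.1 in R 4.3.3 (lmFit, eBayes) was fitted to all 9 arrays, with Benjamini-Hochberg adjustment and a threshold of 0.05. The fit leaves 6 residual degrees of freedom before moderation. Because the comparison covers every non-control probe set, the fit of all 22626, listed as an alternative, is reported beside it, and its own alternatives were chosen after seeing the data. Probe sets with 1 symbol in the platform annotation (20380) were named.

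Named genes were the 12 of lowest p in each direction with non-overlapping arrays, genes with at least 2 probe sets at an unadjusted p under 0.05 in 1 direction, up to 4 members of lowest p per list described, Cftr and Sftpc; others named were chosen after their values were seen. Members, lists and tests were chosen with earlier results of these data known. The functions were tested on simulated data. Alternatives covered scaling, filter, floor, replicate block, eBayes options, array weights, the arrays fitted, the label of HO replicate 2, each array left out and 1 probe set per gene.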

Additional observations from a re-analysis of the deposited data

How the results depend on the processing

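The count of probe sets past an adjusted p of 0.05 (0 in the filtered fit with limma) stayed 0 under every alternative run except no filter, which gave 2; its lowest adjusted p was otherwise 0.236 (without WT replicate 2). The count at an unadjusted p under 0.05 (348) was 783 with no filter, 216 with a filter at the 60th percentile and 215 with 1 probe set per gene, and ran from 265 to 661 with 1 array left out. The lowest is without HO replicate 2; the highest are 661 without HO replicate 3 and 527 without HE replicate 1. The count of probe sets whose arrays did not overlap (904) was 1557, 576 and 570 under the same 3 settings and 1845 to 2912 with 1 HE or HO array left out, where fewer arrays have to part. None of the 24 leading genes changed sign in any alternative run. Leaving out 1 array could not change it, because the genes were chosen for HO and HE arrays that do not overlap. Cftr (-0.01) changed sign with median centring (0.0026), without HE replicate 1 (0.0234) and without HO replicate 1 (0.0399; -0.0708 without HO replicate 2 is the lowest with 1 array left out), and Sftpc (0.07) with quantile normalization (-0.0121) and with HO replicate 2 counted as HE (-0.0109).

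With all 22626 probe sets, the 2 calls became 1 with no floor and with trended and robust eBayes (Syt8 in each). They also became 1 with a floor at the 20th percentile, where Fezf2 is at the floor in both groups with a difference of 0, and with only the HO and HE arrays, but there the probe set that passed was another one (one with no gene name, and that of Slc4a8), and both Syt8 (adjusted p = 0.0856 and 0.0839 with limma) and Fezf2 were lost. They became 0 with the replicate block, and 0 to 6 with 1 array left out; the 6 came without HE replicate 3. The number of lists with a median above 0 (30 of 45) ran from 22 to 35. With HO replicate 2 counted as HE it was 31, but 15 list medians changed sign. In that fit 46 of 167 named list members moved by over 1 SD between replicates.

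The replicate number, which also parts the source names, entered as a replicate block gave 474 probe sets at an unadjusted p under 0.05 and 0 past adjustment. Deviations from the group means correlated between same-numbered HO and HE arrays at 0.1565, 0.1501 and 0.0277. Between differently numbered arrays they correlated at -0.2096 to 0.0645. Not every array correlated best with its own number, and the numbers were not taken to pair the samples. The difference had 1 sign in all 3 numbers for 22.4% of tested probe sets, which some reach without any difference between the groups. Signal limits the low probe sets: 5.13% to 5.41% of HO values and 4.88% to 5.53% of HE values lay at or under the floor.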
